A study of Mus musculus with 32 samples.

Results

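The alpha-arrestins are a family of adaptor proteins related to the arrestins that switch off G protein-coupled receptors. Their members recruit HECT ubiquitin ligases of the Nedd4 family to membrane proteins through PPxY motifs, and the marked cargo is then sorted into endosomes and degraded. Txnip, the thioredoxin-interacting protein, belongs to the same fold family, binds thioredoxin and promotes removal of glucose transporters from the cell surface. In many tissues Txnip and Arrdc4 are targets of the glucose-sensing factors MondoA and ChREBP, and Txnip also responds to glucocorticoids. The 5 genes described here, Arrdc1, Arrdc2, Arrdc3, Arrdc4 and Txnip, were taken by symbol from 25239 genes counted in mouse amygdala, a brain region that processes fear and stress. They were chosen on their expression under acute stress in these same libraries, so their differences between acute and other libraries of the same arm are given as a description, and nothing is read from which of them passed a threshold. Other comparisons that hold acute or baseline libraries reuse part of the libraries of that choice, so their p-values are not independent of it.

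The study injected 4-thiouridine (4sU, at 100 mM, dissolved in DMSO) or DMSO alone into the amygdala of wild-type mice, took the tissue of both sides 24 h later, and alkylated its total RNA before sequencing. 4sU is built into RNA made after the injection, and alkylated 4sU is read as C in place of T, so T-to-C conversions mark newer RNA. Mice were at baseline, under acute stress or under chronic stress. Of the 26 amygdala libraries, 14 came from 4sU mice (5 at baseline, 5 acute, 4 chronic) and 12 from DMSO mice (4 at baseline, 5 acute, 3 chronic). The labels give neither the stress procedure nor age or sex, nor which libraries share an animal, so a p-value here reflects only sample-to-sample spread, part of which may be technical. A further 6 cortex libraries were not analysed here.

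All 5 genes lie on different chromosomes of the mm10 build. Arrdc1 spans chr2:24925352-24935281 on the minus strand, Arrdc2 chr8:70835138-70839720 on the minus strand and Arrdc3 chr13:80883384-80896043 on the plus strand. Arrdc4 spans chr7:68736994-68749238 on the minus strand and Txnip chr3:96557957-96561857 on the plus strand. Exons of Txnip share 606 bases, 21.6% of its exon length, with the gene Gm15441 on the opposite strand, and the strand setting of the counting is not given in the sources used here. Gm15441 was counted at most 4 times in a library, against at least 224 counts of Txnip. The exons of the other 4 genes overlapped no other counted gene.

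Sequences just upstream of the start sites are shown because Txnip and Arrdc4 are the family's textbook glucose-responsive promoters, while in these libraries Txnip, Arrdc2 and Arrdc3 had the higher levels under acute stress and Arrdc4 showed little change. Each is the 150 bases before the annotated start, 5′ to 3′ on the gene's own strand, from RefSeq for GRCm38 (mm10). The stretches are chr3:96557807-96557956 (plus) for Txnip, chr7:68749239-68749388 (minus) for Arrdc4, chr8:70839721-70839870 (minus) for Arrdc2 and chr13:80883234-80883383 (plus) for the first of 3 annotated starts of Arrdc3. Capitals mark matches to CCAAT (the box bound by NF-Y), CACGTG (an E-box), CACGAG (an E-box variant) and GTAAACA (a forkhead motif), on either strand.
Txnip: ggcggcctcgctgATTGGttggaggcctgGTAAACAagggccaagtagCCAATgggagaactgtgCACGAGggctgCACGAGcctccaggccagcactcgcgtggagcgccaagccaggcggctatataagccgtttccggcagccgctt
Arrdc4: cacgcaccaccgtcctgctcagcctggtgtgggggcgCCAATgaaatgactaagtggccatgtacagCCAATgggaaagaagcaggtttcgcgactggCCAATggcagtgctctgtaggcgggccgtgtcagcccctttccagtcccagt
Arrdc2: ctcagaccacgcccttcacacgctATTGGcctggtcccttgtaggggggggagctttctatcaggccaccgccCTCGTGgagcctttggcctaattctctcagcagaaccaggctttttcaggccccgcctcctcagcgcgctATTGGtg
Arrdc3: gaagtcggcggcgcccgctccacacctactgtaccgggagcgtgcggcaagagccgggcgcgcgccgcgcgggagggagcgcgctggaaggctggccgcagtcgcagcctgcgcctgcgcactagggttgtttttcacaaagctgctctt

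In the 250 bases before the start, Txnip held 2 CACGAG elements at -85 and -74, counted from -1 at the base before the start, 1 forkhead motif at -121 and 2 CCAAT boxes. The E-box variants stood 5 bases apart in the same orientation, the layout known as a carbohydrate response element (CACGNG, 5 bases, CACGNG), and 0.046% of all 32851 upstream windows held such a pair. Among the 5 genes only Txnip had that pair. Arrdc4 held 6 CCAAT boxes and 1 CACGTG at -193, where 0.84% of windows held at least 4 CCAAT boxes and 33.9% held at least 1. Arrdc2 held 3 CCAAT boxes and 1 CACGAG, Arrdc1 held 2 CACGAG and no CCAAT, and the first Arrdc3 window held 1 CCAAT at -173. CACGTG was present in 6.02%, CACGAG in 5.37% and GTAAACA in 3.17% of windows. The glucocorticoid half-site AGAACA, present in 16.1% of windows, was in none of the 7 annotated windows of the 5 genes, which says only that these letters are not in these 250 bases. The motifs were picked after the sequences had been seen, the searches covered both strands, and a match is a description of letters and not a bound site.

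**Figure D1:**
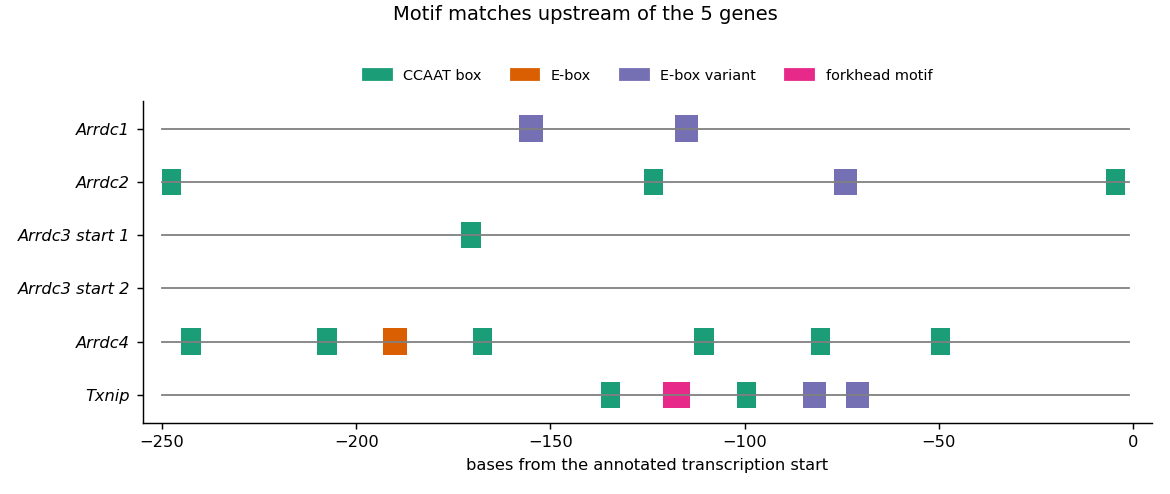
Positions of motif matches in the 250 bases upstream of the annotated start of each gene, in bases from the start (0 at the right), on either strand; Arrdc3 is drawn for 2 of its 3 annotated starts. Arrdc4 carries 6 CCAAT boxes and Txnip the only adjacent pair of E-box variants.

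Each library held 16150316 to 21228741 exon counts, and the members were covered by 97 to 240 counts for Arrdc1, 230 to 1693 for Arrdc2, 583 to 3627 for Arrdc3, 163 to 285 for Arrdc4 and 224 to 921 for Txnip. Levels are given in CPM, exon counts scaled to a common library size, with sizes adjusted by TMM for differences in composition. The 10 baseline and acute 4sU libraries stood apart from the other 16: their reads in 3′ UTR intervals came to 37.1% to 39.7% of their exon counts, against 44.6% to 53.4%. A comparison of chronic 4sU with baseline or acute 4sU, or of 4sU with DMSO at baseline or under acute stress, therefore crosses that division, which cannot be told apart from the groups, while acute against baseline within an arm, chronic against baseline DMSO, and chronic 4sU against chronic DMSO do not. Summed levels of 8 glutamatergic neuron markers ranged from 790 to 3490 CPM, and 6 libraries (acute DMSO 1, 3 and 4, chronic 4sU 3 and 4, chronic DMSO 1) lay more than 1 log2 unit below the median of all libraries in the mean level of these markers. The other marker lists summed to 1600 to 2340 CPM for GABAergic neurons, 1610 to 3040 for astrocytes, 146 to 218 for oligodendrocyte precursors, 287 to 422 for microglia, 180 to 454 for endothelial and mural cells and 45.7 to 5750 for choroid plexus and ependyma, and to at most 1.9 for blood, 4 of whose 5 markers were at 0 in some library. The amygdala markers Prkcd (31.4 to 86.0 CPM), Dlk1 and Tac2 were present in every library, Rspo2 ranged from 1.83 to 16.7 CPM, and Tfap2d was low, from 0 to 2.68 CPM. In mean log2 CPM of these 5 markers, acute DMSO libraries (2.706 to 3.485) all lay below baseline DMSO ones (3.79 to 3.972). Acute and baseline 4sU libraries overlapped (3.675 to 4.33 and 3.919 to 4.367). In the same measure chronic libraries lay below the baseline of their arm, at 3.298 to 3.701 with 4sU and 3.306 to 3.76 with DMSO. Low markers such as Tfap2d weigh as much as abundant ones in that mean. Summed CPM of the 5 markers overlapped, at 112 to 120 in baseline, 103 to 134 in acute and 101 to 125 in chronic DMSO libraries. With 4sU the sums were 124 to 203 at baseline, 132 to 170 under acute and 125 to 132 under chronic stress. The choroid plexus low of 45.7 CPM was an acute DMSO library. The part of these differences in the values of the 5 genes was not tested. In bulk tissue, fewer cells of a type and less RNA per cell cannot be told apart.

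Per kilobase of exon (RPKM), Arrdc3 had the highest group mean of the 5 in every group except the acute 4sU group, with group means of 10.2 to 38.0 RPKM. Arrdc2 ran from 7.32 ± 1.15 RPKM (SD, n = 5) in baseline 4sU mice to 30.5 ± 8.67 (n = 5) in acute DMSO mice, and was the most abundant in acute 4sU mice at 27.4 ± 2.18 (n = 5). Txnip group means ran from 6.07 to 13.8 RPKM, Arrdc1 from 3.90 to 6.01 and Arrdc4 from 2.75 to 3.37.

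Arrdc2, an alpha-arrestin known from other tissues as a glucocorticoid-responsive gene, had the largest acute fold change of the 5 genes. In baseline 4sU libraries 1 to 5 it stood at 14.6, 19.03, 20.0, 18.2 and 14.0 CPM. In acute 4sU libraries it stood at 62.8, 73.2, 63.1, 62.3 and 60.1 CPM. Every acute 4sU library was above every baseline 4sU library. The 4 baseline DMSO libraries held 13.6, 14.1, 20.8 and 39.0 CPM. The 5 acute DMSO libraries held 48.6, 97.5, 86.4, 69.0 and 56.5 CPM. These groups did not overlap either, although baseline DMSO library 4 stood well above the other three. The fitted log2 fold change of acute against baseline was 1.905 ± 0.24 (SE) with 4sU and 1.73 ± 0.26 with DMSO. The gap between these 2 changes was 0.18 ± 0.34 (approximate 95% interval, 1.96 SE each way, -0.49 to 0.85), with an adjusted p of 0.96 in edgeR's quasi-likelihood test. For expression, intervals built this way, here and below, are somewhat narrower than that test implies.

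Under chronic stress Arrdc2 overlapped its baseline range in both arms, although 2 of the 4 chronic 4sU libraries lay above every baseline 4sU library. The 4 chronic 4sU libraries held 17.9, 16.6, 39.6 and 26.2 CPM, and the 3 chronic DMSO libraries 21.4, 18.5 and 14.4 CPM. Chronic 4sU library 3, one of those low in glutamatergic markers, held the highest chronic value, and all 7 chronic libraries lay below all 10 acute ones. Against baseline the log2 fold change was 0.52 ± 0.32 with 4sU (adjusted p = 0.19, edgeR, n = 4 against 5) and -0.26 ± 0.37 with DMSO (adjusted p = 0.96, n = 3 against 4). Neither passed the threshold of 0.05, and both 95% intervals, -0.11 to 1.16 and -0.99 to 0.47, include 0. Without baseline DMSO library 4 the DMSO value was 0.17. Without the 6 libraries low in glutamatergic markers the 4sU value was -0.02 ± 0.38.

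Txnip, the inhibitor of thioredoxin and brake on glucose uptake, was at higher levels in the acute libraries of both arms. It stood at 13.3, 15.5, 17.1, 22.1 and 17.1 CPM in the baseline 4sU libraries. It stood at 37.3, 36.5, 30.5, 30.4 and 29.6 CPM in the acute 4sU libraries. Every acute 4sU library was above every baseline 4sU library. In DMSO mice the 4 baseline libraries held 20.0, 20.2, 24.1 and 24.9 CPM. The acute DMSO libraries held 25.5, 53.0, 43.1, 33.7 and 37.5 CPM. Acute DMSO library 1 sat just above the highest baseline DMSO library, and the other four were clear of it. The acute log2 fold changes were 0.95 ± 0.16 with 4sU and 0.81 ± 0.17 with DMSO, and their difference was 0.14 ± 0.23 (adjusted p = 0.95, edgeR).

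Under chronic stress Txnip held 25.4, 17.7, 18.4 and 21.6 CPM with 4sU and 20.7, 19.7 and 19.5 CPM with DMSO. These values overlapped the baseline ranges in both arms. The log2 fold change against baseline was 0.27 ± 0.13 with 4sU (adjusted p = 0.088, edgeR) and -0.15 ± 0.15 with DMSO (adjusted p = 0.94), and the difference between the arms was 0.42 ± 0.19 (adjusted p = 0.099). Without baseline 4sU library 4, the highest of its group, the 4sU change was 0.38 ± 0.12 (adjusted p = 0.010) and the difference 0.53 ± 0.17 (adjusted p = 0.020), and without chronic 4sU library 2 they were 0.38 ± 0.14 (adjusted p = 0.026) and 0.53 ± 0.20 (adjusted p = 0.044). Both comparisons cross the division of the libraries.

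Arrdc3, which has been tied to sorting of the beta-2 adrenergic receptor and of integrin beta-4, was lower with 4sU than with DMSO at baseline and under acute stress, 2 comparisons that cross the division of the libraries. In 4sU mice the baseline libraries held 34.7, 46.2, 52.0, 42.2 and 40.3 CPM. The acute 4sU libraries held 73.7, 71.8, 61.9, 64.3 and 59.9 CPM. The groups did not overlap. In DMSO mice the baseline libraries held 89.0, 86.9, 84.8 and 94.1 CPM. The acute DMSO libraries held 134, 152, 215, 170 and 131 CPM. These were the highest Arrdc3 levels of the series, with the top value in acute DMSO library 3, which was also the lowest of all libraries in glutamatergic markers. The acute log2 fold change was 0.62 ± 0.12 with 4sU and 0.87 ± 0.13 with DMSO, and the arms differed by -0.25 ± 0.18 (adjusted p = 0.91, edgeR).

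Oligodendrocyte markers moved with Arrdc3 in several of these comparisons. The 6 markers, the myelin genes Mbp, Mobp, Mog, Mag, Mal and Cnp, summed to 5280 to 7320 CPM in baseline 4sU, 6190 to 7580 in acute 4sU, 8870 to 11000 in baseline DMSO and 11600 to 18500 in acute DMSO libraries. They summed to 12700 to 14800 CPM in chronic 4sU and 8950 to 11200 in chronic DMSO libraries, and none of the 6 was at 0 in any library. For acute against baseline, 5 of the 6 passed as higher in DMSO mice, with a median log2 fold change of 0.66, where 2.51% of all genes passed in either direction. In 4sU mice 0 of 6 passed, where 0.269% of all genes did, with a median of 0.11 beside 0.62 for Arrdc3. The part of these cells in the Arrdc3 values was not tested. Without the 6 libraries low in glutamatergic markers the acute change of Arrdc3 was 0.69 ± 0.12 with DMSO and 0.62 ± 0.09 with 4sU.

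**Figure D2:**
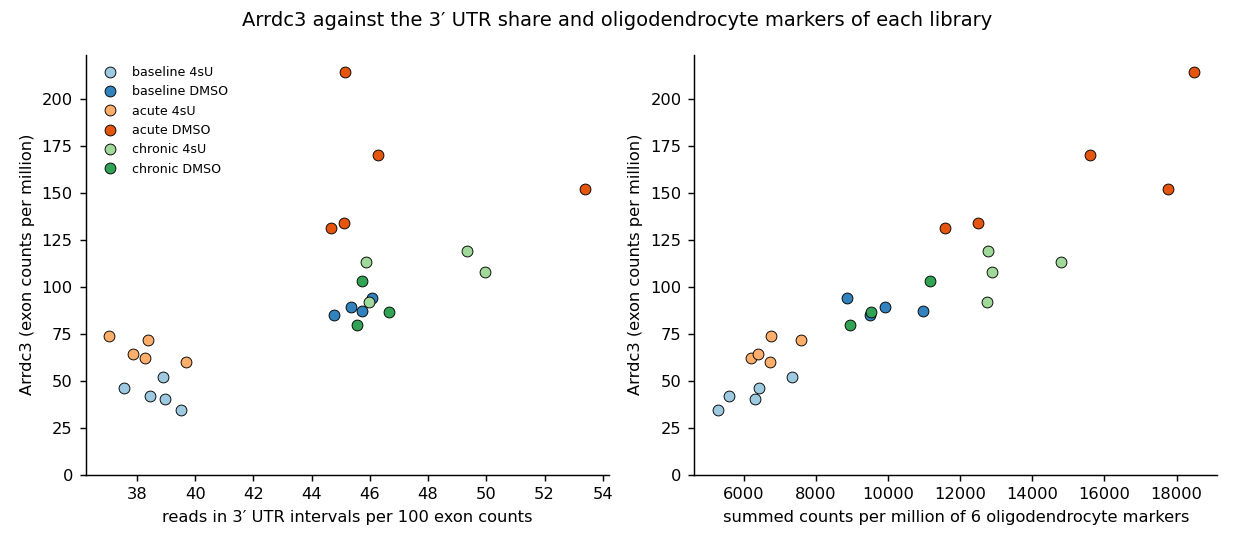
Arrdc3 level (CPM) of each of the 26 libraries against reads in 3′ UTR intervals per 100 exon counts (left) and against the summed CPM of 6 oligodendrocyte markers (right); each point is a library, coloured by group. The 10 baseline and acute 4sU libraries sit at 37.1 to 39.7 on the left axis and hold the 10 lowest Arrdc3 levels, and the acute DMSO libraries, highest in Arrdc3, reach 18500 CPM of the markers.

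In chronic mice Arrdc3 held 113, 91.7, 119 and 108 CPM with 4sU and 103, 86.6 and 79.8 CPM with DMSO. With DMSO this overlapped the baseline range, and the log2 fold change was 0.02 ± 0.11 (95% interval -0.20 to 0.25, adjusted p = 0.98, edgeR). With 4sU every chronic library was above every baseline library, and Arrdc3 rose by 1.30 ± 0.10 (adjusted p = 1.3e-08, edgeR). The rise with 4sU exceeded the change with DMSO by 1.28 ± 0.15 (adjusted p = 7.6e-06, edgeR). These tests reuse the baseline libraries on which the members were chosen. That 4sU comparison crosses the division of the libraries, and all 6 oligodendrocyte markers were higher in it too, with a median log2 fold change of 1.16. Of 9 endothelial and mural markers 6 were higher and 1 lower in it (median 0.54), of 6 astrocyte markers 4 were higher and 1 lower (median 0.36), and of 8 glutamatergic markers 1 was higher and 2 lower (median -0.82), beside a median of -0.02 over all genes. In that comparison 56.5% of all genes passed, in either direction, so such counts are not particular to these markers. The part of these marked cells in the Arrdc3 value was not tested. Within the libraries on one side of the division, chronic 4sU and chronic DMSO mice differed by 0.26 ± 0.11 (95% interval 0.03 to 0.48, adjusted p = 0.52), which did not pass.

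Arrdc4, the member closest to Txnip in its known regulation by glucose, was nearly flat with all libraries included. It ranged from 10.3 to 11.97 CPM in baseline 4sU, 9.53 to 13.4 in baseline DMSO, 10.7 to 13.2 in acute 4sU and 9.82 to 16.4 in acute DMSO libraries. In chronic mice it ranged from 9.40 to 12.7 CPM with 4sU and from 9.90 to 12.2 with DMSO. All 6 groups overlapped their neighbours in the order of group means, from 13.3 ± 2.41 CPM (SD, n = 5) in acute DMSO to 10.9 ± 1.39 (n = 4) in chronic 4sU mice. The acute log2 fold changes were 0.08 ± 0.12 with 4sU and 0.28 ± 0.12 with DMSO. Without the libraries low in glutamatergic markers the DMSO value was 0.49 ± 0.13 (adjusted p = 0.022, edgeR) and the average of both arms 0.29 ± 0.08 (adjusted p = 0.043). How flat Arrdc4 looks under acute stress thus depends on the libraries used. Chronic stress gave -0.08 ± 0.11 with 4sU (adjusted p = 0.55, edgeR) and 0.02 ± 0.13 with DMSO (adjusted p = 0.99).

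Arrdc1, which recruits ESCRT proteins and drives budding of vesicles from the plasma membrane, was higher with 4sU than with DMSO at baseline and under acute stress, across the division of the libraries. It ranged from 9.39 to 11.99 CPM in baseline 4sU and from 8.35 to 12.5 in acute 4sU libraries. It ranged from 6.95 to 8.63 CPM in baseline DMSO and from 5.36 to 10.1 in acute DMSO libraries. The chronic libraries held 9.28, 6.76, 7.10 and 6.91 CPM with 4sU and 6.78, 6.54 and 7.39 CPM with DMSO. Acute against baseline, Arrdc1 differed by -0.06 ± 0.15 with 4sU and -0.12 ± 0.16 with DMSO. Chronic against baseline it fell by 0.52 ± 0.12 on the log2 scale with 4sU (adjusted p = 0.00094, edgeR), across the division of the libraries, a call that was lost with reads in 3′ UTR intervals (-0.74 ± 0.45), and had a value of -0.19 ± 0.14 with DMSO (adjusted p = 0.93). The difference between the arms, -0.34 ± 0.18, did not pass (adjusted p = 0.15).

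**Figure D3:**
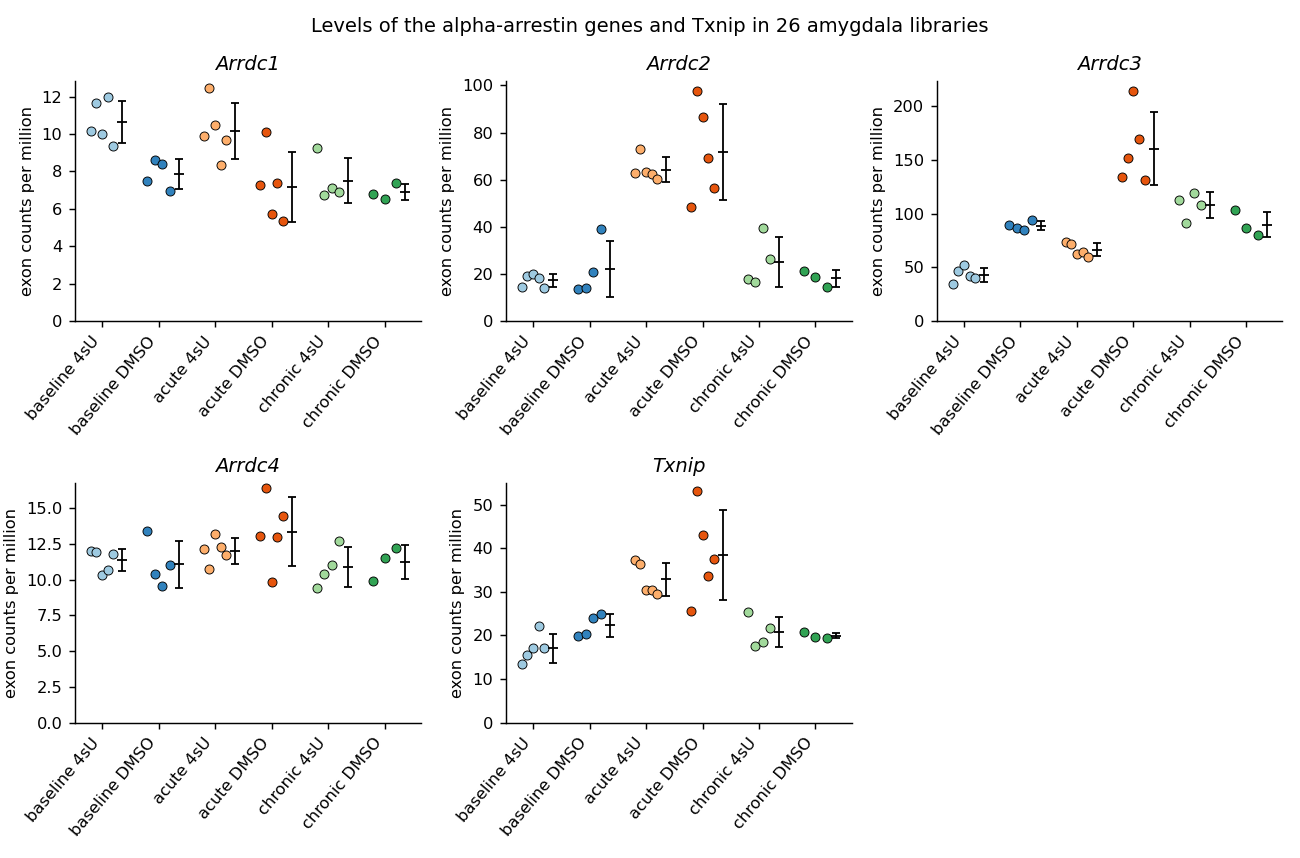
Level of each gene (CPM) in the 26 amygdala libraries by group; points are libraries, and the bar beside each group is the mean ± SD (n = 3 to 5). Arrdc2 and Txnip are high in both acute groups and overlap baseline in both chronic groups, and Arrdc3 is lowest in the 2 groups of 4sU mice at baseline and under acute stress. Arrdc1 and Arrdc4 overlap between groups next to each other in the order of group means, but Arrdc1 does not overlap between baseline 4sU and baseline DMSO mice.

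Acute against baseline is the contrast the members were chosen on. The 3 with an adjusted p under 0.05 in it (Arrdc2, Arrdc3 and Txnip, with 4sU, with DMSO and on average) are therefore named as a consequence of that choice and not as a result. Of the 15995 genes tested, 0.269% passed with 4sU, 2.51% with DMSO and 2.39% on average. The difference between the arms was called for 0 of 5 members and 0.0% of all genes (edgeR), where 916 genes had an unadjusted p under 0.05, none of the 5 among them, and DESeq2 called 21 genes. That difference uses the libraries of the choice, so it is not independent of it. Chronic against acute stress uses the same acute libraries, so nothing is read from its calls either, 4 members with 4sU and 3 with DMSO, where 47.2% and 1.78% of 16310 genes passed. The log2 values were -1.36 ± 0.28 and -1.99 ± 0.32 for Arrdc2, -0.66 ± 0.16 and -0.95 ± 0.18 for Txnip, and 0.70 ± 0.12 and -0.84 ± 0.14 for Arrdc3, with 4sU and DMSO in that order. Arrdc3 was thus higher in chronic than in acute mice in the 4sU arm, which crosses the division, and lower in the DMSO arm, which does not.

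For chronic stress against baseline, 2 of 5 members passed with 4sU (Arrdc3 higher, Arrdc1 lower), beside 56.5% of the 16096 genes tested. With DMSO 0 of 5 passed, beside 0.0% of all genes, with 913 genes and none of the 5 at an unadjusted p under 0.05 and 11 genes called by DESeq2. On average 2 of 5 passed, Arrdc3 at 0.66 ± 0.08 (adjusted p = 3.0e-06, edgeR) and Arrdc1 at -0.36 ± 0.09 (adjusted p = 0.0037), beside 43.8%. For the difference between arms 1 of 5 passed, Arrdc3, beside 38.0%. The shares of members called with 4sU and on average were no larger than those of all genes. Chronic against baseline and its difference between arms reuse the baseline libraries on which the members were chosen, so their p-values are not independent of that choice.

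The injection arms were also compared directly. At baseline and under acute stress these comparisons use libraries on which the members were chosen, so their p-values are not independent of that choice. At baseline 2 of 5 members passed, beside 41.9% of genes: Arrdc3 was lower with 4sU, by -1.03 ± 0.13 (adjusted p = 4.5e-06, edgeR), and Arrdc1 higher, by 0.44 ± 0.16 (adjusted p = 0.030). The Arrdc1 call was lost in 5 of 9 fits that left out 1 library (0.36 to 0.49 over the 9) and with reads in 3′ UTR intervals (0.29 ± 0.49). Under acute stress the same 2 members passed, beside 48.3% of genes: Arrdc3 at -1.28 ± 0.12 (adjusted p = 1.3e-07, edgeR) and Arrdc1 at 0.50 ± 0.15 (adjusted p = 0.0094). That Arrdc1 call was lost with 3′ UTR reads (0.66 ± 0.48) and without the libraries low in glutamatergic markers (0.40 ± 0.20). All 6 oligodendrocyte markers were lower with 4sU in both states, with median log2 fold changes of -0.69 and -1.23, and both comparisons cross the division. Of 9 endothelial and mural markers 6 were lower and none higher at baseline, and 4 lower and 1 higher under acute stress (medians -0.70 and -0.39), while 3 of 8 glutamatergic markers were higher and none lower in both (medians 0.67 and 0.92). Txnip had values of -0.38 ± 0.17 (adjusted p = 0.081) and -0.24 ± 0.16 (adjusted p = 0.22), and Arrdc2 and Arrdc4 did not pass in either state. Under chronic stress, on one side of the division, 0 of 5 passed, beside 0.137% of genes (edgeR), with 1 member, Arrdc3, at an unadjusted p under 0.05 and 138 genes called by DESeq2.

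**Figure D4:**
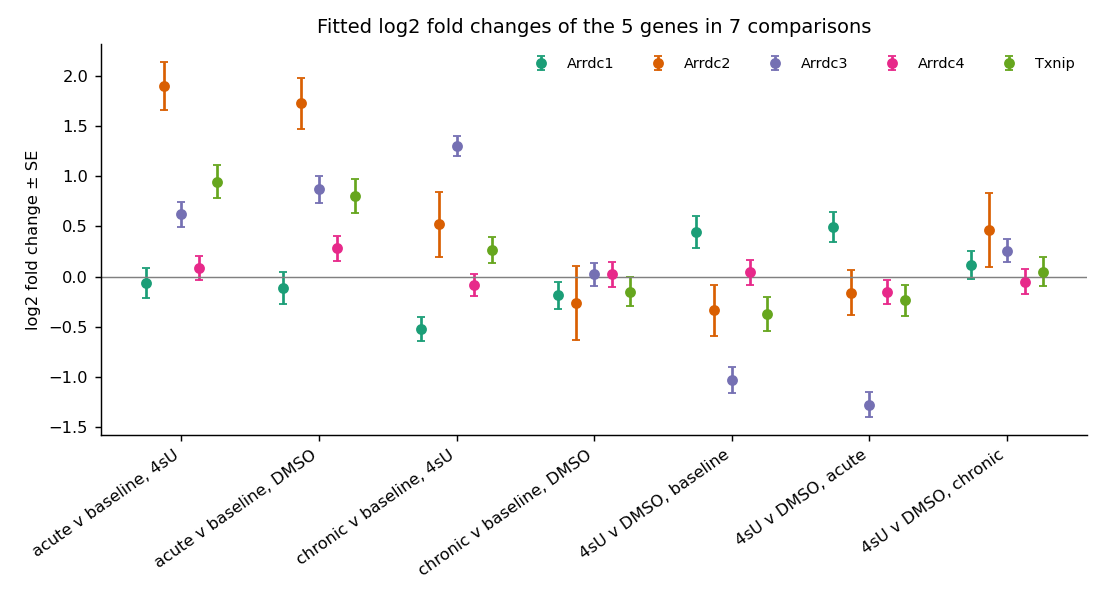
Fitted log2 fold change ± SE (vertical axis) of the 5 genes in 7 comparisons (horizontal axis), each colour a gene. Arrdc2 reaches 1.905 and 1.73 under acute stress, and Arrdc3 moves from 1.30 for chronic against baseline with 4sU to 0.02 with DMSO.

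The partners and regulators of the family were followed in 7 lists of genes, drawn up with earlier results of these data known. For the acute average, where 2.39% of all genes passed, 1 of 14 thioredoxin system genes did, Srxn1 at 0.25 ± 0.05, the sulfiredoxin that repairs peroxiredoxins. Of 11 genes of glucose sensing and uptake 1 passed, Slc2a1 at 0.59 ± 0.10, which encodes the glucose transporter GLUT1, a known Txnip cargo. Of 8 hormone receptor and FoxO genes 1 passed, Klf15 at 0.66 ± 0.07, a glucocorticoid-induced transcription factor. None of 7 arrestin-fold relatives, 11 Nedd4-family ligases and adaptors, 12 ESCRT partners or 7 cargo receptors passed. List medians ran from -0.03 to 0.12, beside 0.01 over all genes, so that most partners of the family showed values close to those of other genes.

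In chronic against baseline DMSO mice 0 genes of the 7 lists passed, as did 0.0% of all genes, so the count says nothing about the lists. Their medians were -0.10 to 0.06 beside 0.01. In the 4sU arm, across the division, 7 of 11 Nedd4-family genes were higher and 2 lower, with Wwp1 at 0.79 ± 0.05 and Itch at 0.63 ± 0.05, both ligases that bind alpha-arrestins. Of 12 ESCRT partners 6 were higher and 4 lower, with Vps37a at 0.68 ± 0.06 and Hgs at -0.82 ± 0.06. Of 11 glucose genes 4 were lower and none higher, with hexokinase Hk1 at -0.70 ± 0.08 and Slc2a6 at -0.72 ± 0.12. Of 14 thioredoxin system genes 4 were higher and 3 lower, with the peroxiredoxin Prdx1 at 0.77 ± 0.08 and mitochondrial thioredoxin Txn2 at -0.41 ± 0.06. Arrestin-fold relatives had 1 of 7 higher (Vps26a, a retromer subunit, at 0.60 ± 0.06) and 4 lower (Arrb1, beta-arrestin 1, at -0.34 ± 0.05), cargo receptors 2 of 7 higher (Insr at 0.32 ± 0.05) and 2 lower (Notch1 at -0.82 ± 0.11), and hormone receptor and FoxO genes 3 of 8 higher (the glucocorticoid receptor Nr3c1 at 0.41 ± 0.06) and 2 lower (Foxo3 at -0.64 ± 0.10). All named genes of this arm had an adjusted p under the threshold in edgeR, as did 56.5% of all genes.

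Genes whose level across the 26 libraries was most like that of each member were ranked by Pearson's r of log2 CPM over 13996 genes, as a description, since libraries share groups and composition. The 26 also include the acute libraries on which the members were chosen, so likeness among genes high in them partly follows from that choice. For Arrdc2 they were Plekhf1 (r = 0.96), Ada (r = 0.95) and Sgk1 (r = 0.94), the last a kinase gene induced by glucocorticoids. For Txnip they were Spsb1 (r = 0.90), Errfi1 (r = 0.88) and Ada (r = 0.88). For Arrdc3 they were Mtmr2 (r = 0.96), Trp53inp1 (r = 0.96) and Elovl5 (r = 0.95). For Arrdc1 they were Mapk3, Fxyd7 and Prmt2 (r = 0.89 each), and for Arrdc4 the highest was lower, with Timm29 at r = 0.73. Among the members themselves Arrdc2 and Txnip had r = 0.88 over the 26 libraries, the highest of the 10 pairs, and r = 0.45 for deviations from group means. Arrdc2 and Arrdc3 had r = 0.48 and 0.55 in the same order, the latter the highest for deviations, and Arrdc1 and Arrdc3 -0.68 and 0.01.

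T-to-C conversion was measured in 3′ UTR intervals. Over all intervals, 4sU libraries had rates of 0.0400% to 0.0778% and DMSO libraries 0.0228% to 0.0318%, so the background without 4sU was a large part of the signal. The interval of Arrdc3 (2616 bases) held 47175 covered T positions per library on average, those of Txnip, Arrdc2 and Arrdc4 9987, 6710 and 4387, and that of Arrdc1 only 251, below the minimum of 2000 set for a test.

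Arrdc3 had rates of 0.0490%, 0.0387%, 0.0134%, 0.0177% and 0.0126% in baseline 4sU and 0.0156%, 0.0251%, 0.0349% and 0.0129% in baseline DMSO libraries. It had 0.0362%, 0.0314%, 0.0224% and 0.0212% in chronic 4sU and 0.0165%, 0.0188% and 0.0093% in chronic DMSO libraries. In acute libraries it ranged from 0.0036% to 0.0607% with 4sU and from 0.0109% to 0.0318% with DMSO. The chronic groups did not overlap, and the baseline and acute groups did. How many other genes had chronic groups without overlap was not counted. In all 14 4sU libraries together 125 conversions were seen in 469974 covered T positions (0.0266%), against 133 in 756566 with DMSO (0.0176%). Its rate was below the library's overall rate in 14 of 14 4sU libraries and 10 of 12 DMSO libraries. The other members were mostly below it with 4sU too: Arrdc1 in 13, Arrdc4 and Txnip in 12 and Arrdc2 in 11 of 14 libraries. With DMSO these numbers were 11, 6, 5 and 7 of 12 for Arrdc1, Arrdc4, Txnip and Arrdc2. How many of all genes lay below the overall rate was not counted. The log2 difference of 4sU against DMSO was 0.23 ± 0.50 at baseline, 0.58 ± 0.42 under acute stress and 0.87 ± 0.51 under chronic stress (adjusted p = 0.93, 0.51 and 0.32, edgeR).

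Txnip showed no excess with 4sU in the summed counts: 26 conversions in 122077 covered T positions with 4sU (0.0213%) and 45 in 137589 with DMSO (0.0327%). Chronic DMSO libraries held 0.0125%, 0.0890% and 0.0787%, and chronic 4sU libraries 0.0102%, 0.0326%, 0.0264% and 0.0236%. In chronic DMSO library 3 the 6 conversions came from 2 reads. The log2 difference of 4sU against DMSO was 0.34 ± 0.94 at baseline, -0.66 ± 0.75 under acute stress and -1.37 ± 0.93 under chronic stress (adjusted p = 0.94, 0.72 and 0.41, edgeR).

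Arrdc2 had 27 conversions in 79828 covered T positions with 4sU (0.0338%) and 23 in 94626 with DMSO (0.0243%), and its rate per library ranged from 0 to 0.156%. Arrdc4 had 15 in 54800 with 4sU (0.0274%) and 17 in 59264 with DMSO (0.0287%). Arrdc2 was at 0 in 3 of 5 baseline 4sU libraries. Few positions were covered in that group: its 11967 together would turn a count of 3 into 0.0251%. Baseline DMSO library 4 was also at 0, with 7033 covered positions. In all, 0 of the 4 testable members passed in any conversion comparison (edgeR), and none had an unadjusted p under 0.05. The share of the 8662 genes tested that passed was 7.2% for 4sU against DMSO at baseline, 11.6% under acute stress and 14.1% under chronic stress, 0.0% for acute against baseline 4sU mice, where 534 genes had an unadjusted p under 0.05, and 0.75% for chronic against baseline 4sU mice. For acute against baseline 4sU mice the 4 members had log2 differences between -0.69 ± 0.87 (Txnip) and -0.01 ± 0.50 (Arrdc3), and for chronic against baseline between -0.40 ± 0.95 (Txnip) and 0.56 ± 1.12 (Arrdc2). The 95% intervals of these differences reached past a 2-fold change in at least 1 direction for Arrdc2, Arrdc4 and Txnip in both comparisons and for Arrdc3 in chronic against baseline (-0.85 to 1.04), while that of Arrdc3 in acute against baseline did not (-0.99 to 0.98). Of the partner lists, Ndfip1, an adaptor of Nedd4-family ligases, passed in all 3 comparisons of 4sU with DMSO, at 2.06 ± 0.26, 2.59 ± 0.24 and 2.55 ± 0.29 (adjusted p = 4.1e-13, 6.6e-25 and 7.3e-16, edgeR).

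**Figure D5:**
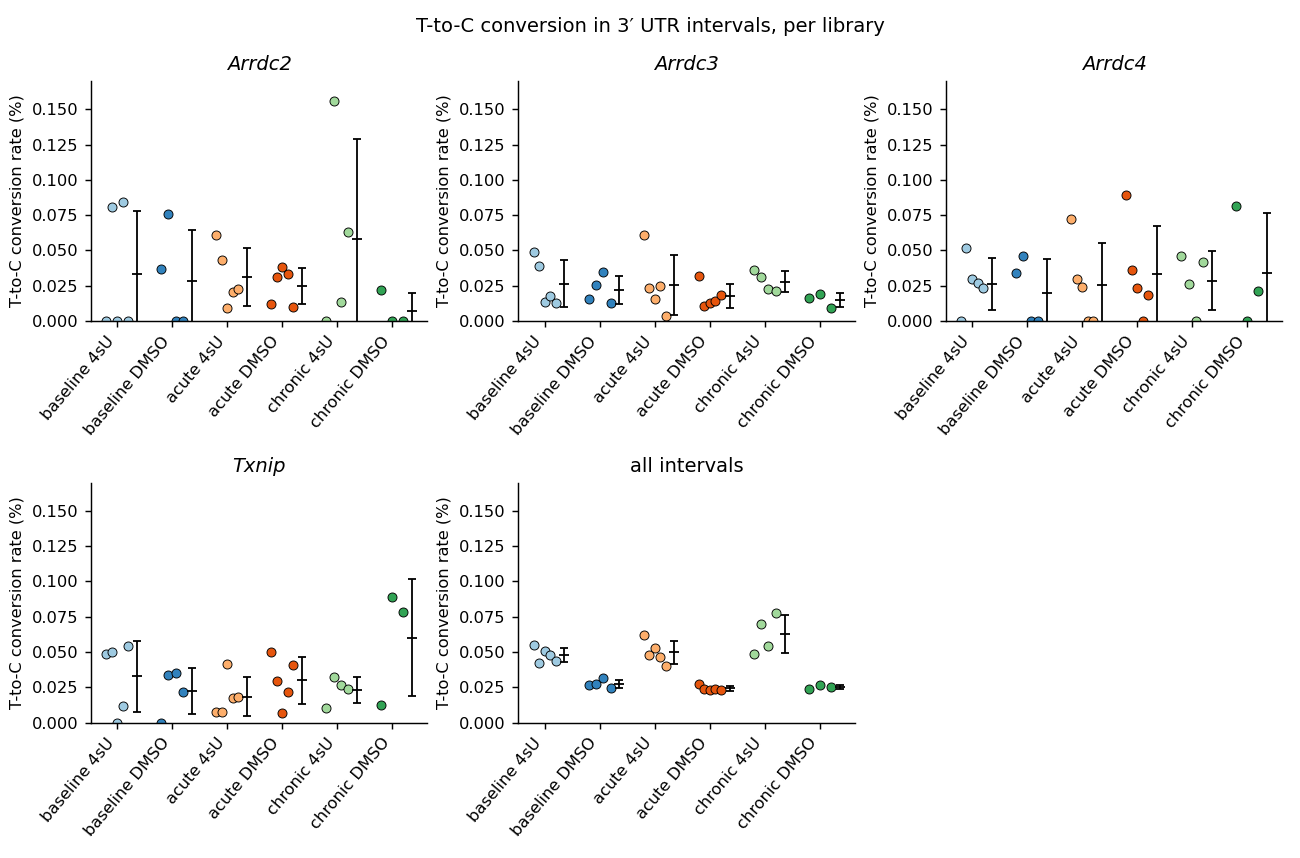
T-to-C conversion rate (%) in the 3′ UTR interval of each of the 4 testable genes and over all intervals, per library and group; points are libraries and bars mean ± SD, cut at 0. Over all intervals the 4sU libraries (0.0400% to 0.0778%) lie above all DMSO libraries (0.0228% to 0.0318%), while for the 4 genes the groups spread from 0 to 0.156%.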

How the data were processed

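The 26 amygdala libraries were grouped by the labels. The authors deposited exon counts per gene symbol as whole numbers, without normalization, in 2 tables whose 9 shared baseline columns differed in 0 values. Per the submitters' processing notes, cutadapt 3.1, HISAT2 2.1.0, SAMtools 1.9, featureCounts 2.0.1 and the mm10 build were used, with roles and strand setting not given in the sources used here. Per the file headers, slamdunk 0.4.3 produced the deposited conversion tables, whose rate is a fraction (T-to-C conversions over covered T positions of a 3′ UTR interval). Of several intervals of a gene the one with most covered T positions was used.

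Counts were tested with edgeR 4.0.16 (R 4.3.3): TMM scaling (also used for CPM), filterByExpr, robust quasi-likelihood fits with 1 coefficient per group, two-sided, Benjamini-Hochberg adjustment over all genes tested, threshold 0.05. Baseline and acute groups shared a fit, baseline and chronic groups another, and chronic against acute used all 6 groups. All 5 genes passed the filter in each fit. Conversions were tested likewise, offset by log covered T, where a gene averaged 2000 or more such positions and every library had some. Fits were first tested on simulated data.

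The 5 genes, 7 partner lists and 10 marker lists were chosen with earlier results of these data known, and 1 gene of the oligodendrocyte list is not reported here and entered none of its values. Named partners are up to 2 called genes per list with the smallest p in the acute average and in chronic against baseline, and the 3 genes most like each member (mean of at least 1 CPM, prior count 2). Ndfip1 and the markers named by value were chosen after their values were seen. No 2 libraries of a group held identical counts. Alternatives were DESeq2 1.42.0, no filter on low counts, reads in 3′ UTR intervals, other sets of groups, a replicate block, leaving out each library and, chosen after the data were seen, leaving out the 6 libraries low in glutamatergic markers.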

Additional observations from a re-analysis of the deposited data

Results flagged for a closer look

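The Arrdc3 change under chronic stress differed between the injection arms by 1.28 on the log2 scale, by the test of the difference itself (adjusted p = 7.6e-06, edgeR). In that test 38.0% of all genes passed, so a call in it is not particular to Arrdc3. Its value for 4sU against DMSO was -1.03 ± 0.13 at baseline, across the division, and 0.26 ± 0.11 under chronic stress. The difference rests on the 4sU arm, whose baseline libraries lie on the other side of the division by 3′ UTR reads. The baseline libraries of both arms also served in choosing the members. Leaving out single libraries gave 1.21 to 1.44, and leaving out the 6 libraries low in glutamatergic markers gave 1.32.

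Among 45 sets of 4 or 5 values of a member in a group (expression or conversion), 2 held a library far from the others, where chance alone gives about 1 in 20. Arrdc1 stood at 9.28 CPM in chronic 4sU library 1, against 6.76 to 7.10 in the other three. Arrdc2 stood at 73.2 CPM in acute 4sU library 2, against 60.1 to 63.1 in the other four.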

How the results depend on the processing

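No called result changed sign. In the tested comparisons, with single libraries left out, 634 values kept their side of the threshold, 6 crossed it upward and 5 downward, and with other settings 309, 4 and 5. In acute against baseline (each arm and their average) and in chronic against acute, nothing is read from the calls. Fits of only the 2 groups called 0 members for acute against baseline DMSO mice and 0 for chronic against acute DMSO mice, in place of 3 each. Leaving out single libraries gave acute values of 0.55 to 0.70 for Arrdc3 with 4sU and 0.68 to 0.93 for Txnip with DMSO. The Arrdc3 value lost its call in 7 of 10 such fits and the Txnip value in 2 of 9. Without the libraries low in glutamatergic markers Arrdc4 passed for acute against baseline DMSO mice (0.49) and on average (0.29). With reads in 3′ UTR intervals, where Arrdc1 has few reads, 1 member passed in place of 2 for 4sU against DMSO at baseline and under acute stress and for chronic against baseline with 4sU and on average, the Arrdc1 call being lost each time. Leaving out single libraries gave 1 to 2 members called for 4sU against DMSO at baseline (Arrdc1 lost its call in 5 of 9 fits, and its values over the 9 were 0.36 to 0.49) and 1 to 2 for the chronic difference between arms, where Txnip joined without baseline 4sU library 4 or chronic 4sU library 2. Without either, Txnip also passed for chronic against baseline 4sU mice (0.38 each). For acute stress, 4sU against DMSO, Arrdc1 lost its call without the libraries low in glutamatergic markers (0.40), where Arrdc4 (-0.36) and Txnip (-0.46) gained one, as Txnip did at baseline (-0.38). Txnip also gained one at baseline without baseline 4sU library 4 (-0.49) or with only the 2 groups, and under acute stress without acute DMSO library 1 (-0.36). The cause was not tested.

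The replicate block changed no member's call: for chronic against baseline 4sU mice 2 members passed with the replicate block as without it. In deviations from group means, same-numbered libraries of different groups correlated at -0.60 to 0.54 (median -0.01), and different-numbered ones at -0.77 to 0.75 (median 0.02). The 2 ranges overlap widely, so the numbers showed no common pairing, but pairing between single groups cannot be told from them.

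Counts of called genes moved more. For acute against baseline 4sU mice, 43 became 95 with DESeq2, 67 with all 6 groups, 137 with only the 2 groups and 84 without the libraries low in glutamatergic markers. With DMSO 402 became 805 with DESeq2, 158 with 3′ UTR reads, 4 with only the 2 groups and 2391 without those libraries, and on average 382 became 652, 193 (3′ UTR reads) and 1112 (without them). Without those libraries the acute difference between arms called 313 genes and chronic against baseline DMSO mice 44, where all libraries gave 0 (21 and 11 with DESeq2). For chronic 4sU against chronic DMSO, 22 became 138 with DESeq2, 11 with the replicate block, 3 with 3′ UTR reads, 8 with all 6 groups and 0 with only the 2 groups. For chronic against acute DMSO mice, 291 became 545 with DESeq2, 121 with 3′ UTR reads, 0 with only the 2 groups and 108 without the low libraries. Conversion in chronic against baseline 4sU mice called 40 with all intervals, 14 with the replicate block and 26 with rescaled libraries, in place of 65. Leaving out single libraries gave 143 to 906 genes for acute against baseline DMSO mice, 249 to 787 on average, 25 to 42 with 4sU, 45 to 638 for chronic against acute DMSO mice, 2 to 19 for chronic 4sU against chronic DMSO and 15 to 240 for conversion in chronic against baseline 4sU mice. Conversion of Arrdc1 could not be tested at its depth.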

Other observations

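The share of Arrdc2 reads with a T-to-C conversion was high in both arms, from 0 to 9.78% of reads per library with 4sU (127 of 3124 reads in all) and from 0 to 14.4% with DMSO (214 of 3665 reads), while conversions per covered T position came to 0.0338% and 0.0243%. Arrdc3 had 120 of 10975 reads with a conversion with 4sU and 127 of 17176 with DMSO, and at most 2.64% in a library. In Arrdc2 the reads with a conversion thus outnumbered the counted conversions (27 and 23). The same held in Arrdc4, with 32 reads and 15 conversions with 4sU and 35 reads and 17 conversions with DMSO, and in Arrdc1, with 5 reads and 2 conversions and 3 reads and 1 conversion. It did not hold in Arrdc3 (125 and 133 conversions) or Txnip, with 26 reads and 26 conversions with 4sU and 37 reads and 45 conversions with DMSO.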
